A study of Mus musculus with 6 samples.

Results

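The basal (CD29hi) and luminal (CD29lo) cells of the virgin mouse mammary gland were compared on 4 of the 6 arrays of a study of ∆Np63, a form of the transcription factor p63. The arrays were chosen by their sample labels: population P4, sorted as CD24+CD29hi, and population P5, sorted as CD24+CD29lo, each with 1 array of wild-type and 1 of ∆Np63 heterozygous knockout mice, all on 1 slide. The labels describe P4 as enriched for MaSC (mammary stem cells) and P5 as enriched for luminal progenitors; the other 2 arrays held total mammary epithelial cells and were not used in the comparison. The mice were virgin C57/B6 animals, and neither an age nor the number of mice behind an array is given in the sources used here. Glands were dissociated mechanically and enzymatically and cells were sorted by flow cytometry; sample RNA was labelled with Cy5 and hybridised against a common reference labelled with Cy3, Agilent's pool of RNA from 11 mouse cell lines, with no dye swap.

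The ducts of the mammary gland are built from an inner luminal layer and an outer basal layer. Basal cells are largely myoepithelial: they carry the contractile apparatus of smooth muscle, rest on the basement membrane and contract in response to oxytocin to expel milk, and transplantable stem cell activity has been assigned to the CD29hi gate. Luminal cells line the lumen and comprise hormone-sensing cells, which carry oestrogen, progesterone and prolactin receptors, and alveolar-type progenitors, which are known for Elf5, Kit and milk protein genes.

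Each value is a level, log2 of sample over reference signal, and each difference is CD29hi minus CD29lo on that log2 scale, averaged over the wild-type and the heterozygous pair. Levels are given for the wild-type and then the heterozygous CD29hi array, against the wild-type and then the heterozygous CD29lo array. A gene was called at an adjusted p below 0.05 by limma with Benjamini-Hochberg adjustment over all genes. Because each population had 1 array of each genotype, the error was the spread between the 2 pairs, and p-values lean on the spread that limma pooled over all genes. Nothing in the labels says that the pairs came from separate animals or sorts, so this spread may be technical. Genotype and position on the slide cannot be told apart, and in bulk RNA fewer cells of a type and less RNA per cell cannot be told apart.

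The 2 populations differed widely. Of 27646 genes tested, 7097 (25.7%) were called: 3894 (14.1%) higher and 3203 (11.6%) lower in CD29hi cells. A difference of at least 2-fold in the same direction in both genotypes was seen for 2011 genes, 1060 of them higher (3.83%) and 951 lower (3.44%), and all 2011 were called. At least 4-fold, 433 called genes were higher and 373 lower in CD29hi cells. Differences of over 32-fold were made mostly by genes higher in CD29hi cells, 29 against 4. The median difference of all genes was 0.06. Both CD29hi arrays lay above both CD29lo arrays for 7737 of the 27646 genes and below both for 6308. A lack of overlap between the populations was therefore common. Counts of called list members below are to be read against the shares of all genes.

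The wild-type and heterozygous pairs, which share no array, gave similar differences across genes. Across the 27646 genes, which are not independent replicates, the 2 pair differences correlated with r = 0.888. The difference was larger in the wild-type pair for 4853 of the 7097 called genes, with a median size of 0.946 against 0.781 in the heterozygous pair. Median Cy5 signal over background was 3.4 (CD29hi) and 4.52 (CD29lo) in wild type, against 3.24 and 3.29 in heterozygous mice. The part of signal strength or genotype in this was not tested.

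**Figure D1:**
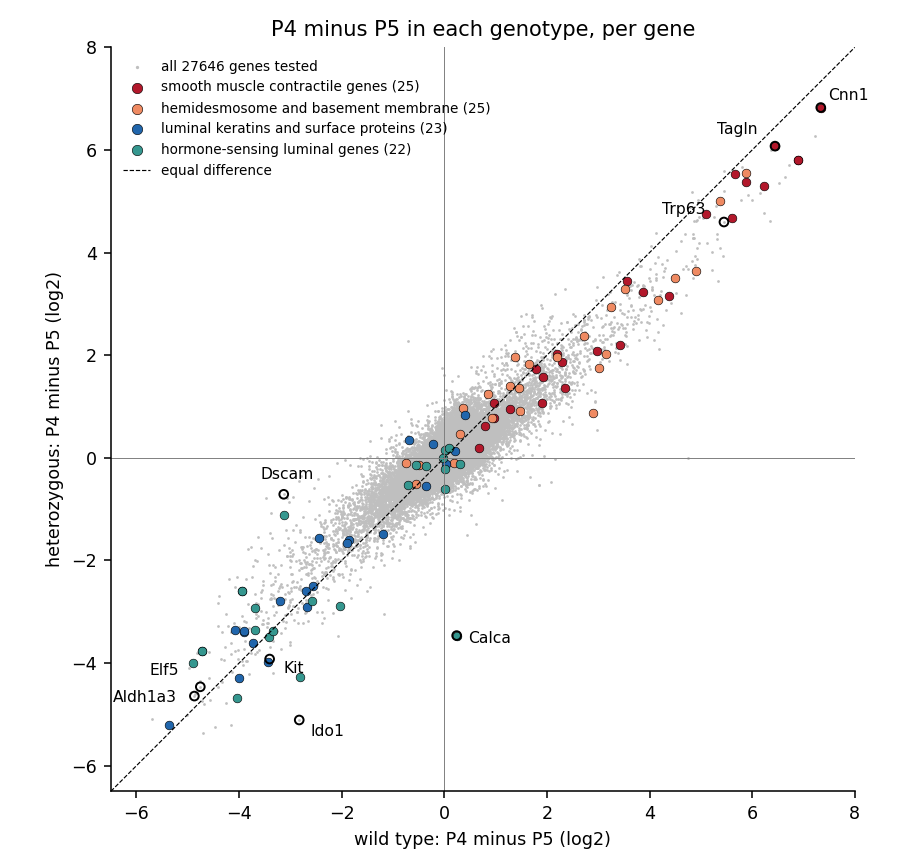
CD29hi minus CD29lo (P4 minus P5, log2) in the wild-type pair on the x axis against the same difference in the heterozygous pair on the y axis, 1 point per gene for 27646 genes, with 4 gene lists coloured, black rings on the labelled genes and the dashed line marking equal differences. The contractile genes run up to Cnn1 at the upper right and the luminal genes lie at the lower left, while Calca (0.24 and -3.47) lies far from the line.

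The number of calls moved widely with the processing, whereas of the genes called in both the main and another setting only 3, with the mean over probes, changed direction. Fits to all 6 arrays or without the genotype term give the same differences by design, so direction could not change there. With the scanner software's own log ratios no gene was called by limma (smallest adjusted p = 0.0966; 7479 genes at an unadjusted p below 0.05), although 2951 genes were at least 2-fold apart in both genotypes. A fit to all 6 arrays called 3665 genes, and this fit called 0 without the wild-type CD29hi array (5019 at an unadjusted p below 0.05), 0 without the heterozygous CD29hi array (4589), 1017 without the wild-type CD29lo array and 2944 without the heterozygous CD29lo array. The split of calls also moved with the scaling: 54.9% of calls were higher in CD29hi cells in the main setting, 26.5% when each array was centred on its median and 44.4% with the deposited log2 ratios. Size mattered to the calls of the 760 genes on the functional lists, of which 467 were called: under 9 other settings with all 4 arrays, which leave aside the scanner software's log ratios (0 of 467 called), 158 of the 174 called with at least 4-fold differences stayed called in the same direction in every one, against 61 of 152 between 2- and 4-fold and 1 of 141 under 2-fold. Among the genes named, Aqp3, Col1a1, Gata3, Il6, Itgb3, Itgb4, Lgr4, Mfge8, Notch2, Pdgfra, Plec, Sox9, Sox10, Wnt7b and Zeb2 lost their call under 4 or more of these 9 settings. A gene with several probes is given by the one of highest mean Cy5 signal; for 135 of the 240 called members with several probes the mean over probes differed from it by more than 1.5 times and was smaller for 131 of them, and that mean stands beside the difference where such a gene is named.

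Of the genes whose surface proteins were used to sort the cells, Itgb1 went with its gate, which is no finding. Itgb1, which encodes CD29, stood at 1.62 and 1.03 in CD29hi cells against 0.17 and -0.33 in CD29lo cells, and Cd24a, which encodes CD24, at 2.26 and 1.63 against 4.71 and 3.20. Both populations were sorted as CD24+, and the Cd24a level of CD29hi cells lay below that of CD29lo cells on both genotypes' arrays.

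The 6 genes taken as markers of the populations separated them. Cnn1, which encodes the smooth muscle actin-binding protein calponin, had levels of 7.24 and 7.64 in CD29hi cells against -0.09 and 0.81 in CD29lo cells. This was a difference of 7.08 (SE 0.17, limma adjusted p = 1.53e-07), 135-fold, the largest of all called genes. Tagln, encoding the actin-bundling protein transgelin, had levels of 4.46 and 4.83 against -1.98 and -1.24, a difference of 6.26 (SE 0.16, limma adjusted p = 1.53e-07). Both contractile genes were far above the CD29lo arrays in each genotype, and a second Tagln probe gave 4.11 and 4.37 against -1.95 and -1.10.

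The Tagln probe that gives the lower of these 2 signals is shown because it lies in the coding sequence and gives the same picture as the brighter one (array annotation, mm7, chr9:45888956-45889015, minus strand, 60 bases):
Tagln: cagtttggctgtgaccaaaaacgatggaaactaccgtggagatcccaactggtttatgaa

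Trp63, which encodes p63 and is the gene whose ∆N form the heterozygous mice lack on one allele, had levels of 5.99 and 5.49 in CD29hi cells against 0.54 and 0.89 in CD29lo cells. The groups did not overlap: a difference of 5.02 (SE 0.20, limma adjusted p = 4.42e-07), 32.5-fold. The 3 Trp63 probes disagreed, however. A coding probe had levels of 1.08 and 0.48 in CD29hi cells against 0.20 and 0.01 in CD29lo cells, a difference of 0.67 with 2 arrays above background, and the third probe differed by 0.06, so that the mean over probes gave 1.92. None of the 3 can be placed in the exon altered in the knockout from the sources used here, so the levels do not check the genotype.

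The coding probe is shown because it covers the part of the message for the DNA-binding domain, which TA and ∆N isoforms share (array annotation, mm7, chr16:25526842-25527619, plus strand, 60 bases whose coordinates span an intron):
Trp63: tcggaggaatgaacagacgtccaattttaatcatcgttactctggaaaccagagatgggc

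On the luminal side, Elf5, a transcription factor of alveolar progenitors, had levels of 0.79 and 2.10 in CD29hi cells against 5.55 and 6.56 in CD29lo cells, a difference of -4.61 (SE 0.15, limma adjusted p = 2.07e-07). Kit, the receptor for stem cell factor, stood at 0.58 and 0.77 against 3.98 and 4.69, a difference of -3.66 (SE 0.17, limma adjusted p = 8.91e-07). Aldh1a3, a retinaldehyde dehydrogenase, stood at 3.64 and 4.07 against 8.51 and 8.71, a difference of -4.76 (SE 0.15, limma adjusted p = 1.79e-07). All 3 were lower on both CD29hi arrays than on either CD29lo array, by 24.4-, 12.7- and 27.1-fold. A second Aldh1a3 probe gave 0.44 and 0.30 against 3.98 and 3.61. These defining markers followed the labels, and genes of hormone-sensing cells such as Esr1 were also high in CD29lo cells.

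**Figure D2:**
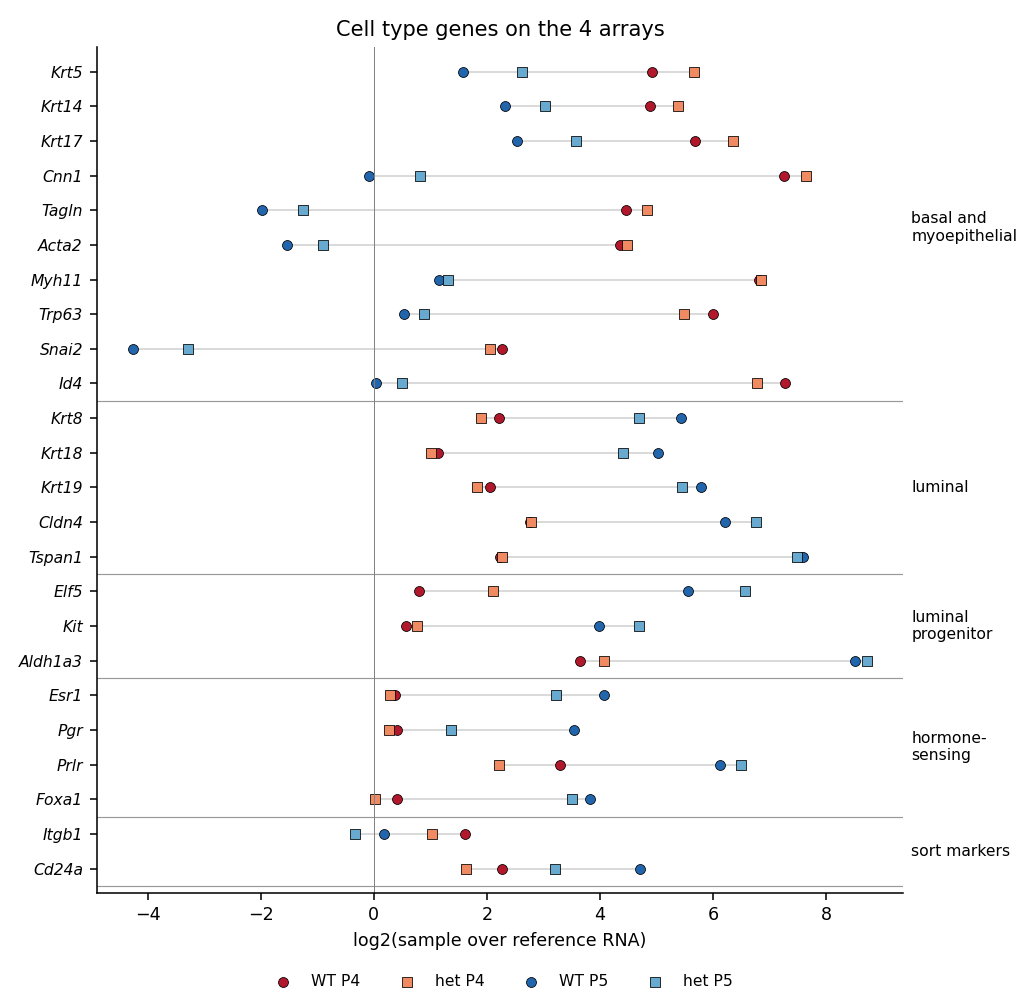
Levels of 24 genes on each of the 4 arrays, as log2 of sample over reference RNA on the x axis, with circles for wild-type and squares for heterozygous mice, red for CD29hi (P4) and blue for CD29lo (P5). Basal and contractile genes such as Cnn1 lie to the right in CD29hi cells, and luminal genes such as Tspan1 (2.22 and 2.27 against 7.58 and 7.49) to the right in CD29lo cells.

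Keratins split by layer. Of 6 basal keratins, 5 were called higher and 1 lower in CD29hi cells, with a median difference of 2.35. Krt5 had levels of 4.91 and 5.67 in CD29hi cells against 1.58 and 2.62 in CD29lo cells, a difference of 3.19 (SE 0.15, limma adjusted p = 1.08e-06). Its partner Krt14 had 4.88 and 5.38 against 2.31 and 3.02, a difference of 2.47 (SE 0.15, limma adjusted p = 4.06e-06), and Krt17 differed by 2.97. The levels of these 3 genes were above the reference on the CD29lo arrays too. Krt6a, a keratin described in terminal end buds, went the other way at 1.50 and 0.69 against 3.21 and 2.40, a difference of -1.71 (SE 0.14, limma adjusted p = 3.23e-05). The luminal keratins mirrored the basal ones: Krt8 had levels of 2.22 and 1.90 against 5.43 and 4.68, Krt18 1.13 and 1.01 against 5.03 and 4.40 and Krt19 2.05 and 1.83 against 5.78 and 5.45. Each was higher on both CD29lo arrays than on either CD29hi array, by 7.98-, 12.5- and 12.7-fold (limma adjusted p = 2.03e-06, 8.91e-07 and 4.07e-07).

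Smooth muscle contractile genes were nearly all higher in CD29hi cells. Of 25 measured, 24 were called higher and none lower, 20 of them at least 2-fold higher in both genotypes (3.83% of all genes). The median difference was 2.81 (3.42 in the wild-type and 2.21 in the heterozygous pair). Their mean level was 3.14 and 2.94 in CD29hi cells against -0.52 and -0.16 in CD29lo cells. Acta2, smooth muscle actin, had levels of 4.34 and 4.48 in CD29hi cells against -1.54 and -0.91 in CD29lo cells, a difference of 5.63 (SE 0.17, limma adjusted p = 1.79e-07). Myh11, the smooth muscle myosin heavy chain, stood at 6.81 and 6.84 against 1.15 and 1.32, a difference of 5.59 (SE 0.15, limma adjusted p = 1.53e-07). Both were high on each CD29hi array and far lower on each CD29lo array, 49.7- and 48.3-fold. The myosin light chain Myl9 differed 81.4-fold, tropomyosin Tpm2 81.3-fold and the myosin light chain kinase Mylk 54.4-fold. Smaller differences were measured for the focal adhesion protein Vcl, at 1.60 and 0.98 against 0.31 and 0.02, a difference of 1.12 (SE 0.15, limma adjusted p = 0.000664). Des, the muscle intermediate filament desmin, was the member not called, at -1.05 and -1.09 against -1.72 and -1.28 (limma adjusted p = 0.0967).

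Regulators of these genes had a lower median difference than the genes themselves. Of 11 measured, 6 were called higher and 1 lower, with a median of 0.48. Srf, the factor that binds CArG boxes in smooth muscle genes, had levels of 1.95 and 1.91 in CD29hi cells against 0.33 and 1.11 in CD29lo cells, a difference of 1.21 (SE 0.20, limma adjusted p = 0.00185). Its actin-sensitive cofactor Mrtfa stood at 0.29 and 0.34 against -1.03 and -0.74, a difference of 1.20 (SE 0.15, limma adjusted p = 0.000362, mean over probes 0.75), and Mef2c, a MADS-box factor, at -0.26 and -0.82 against -2.62 and -2.06, a difference of 1.80. Srf, Mrtfa and Mef2c were higher on both CD29hi arrays than on either CD29lo array; the mean over its probes gave 0.89 for Mef2c. Myocd, the myocardin cofactor of vascular smooth muscle, was not called, at 0.11 and 0.27 against 0.11 and 0.25 (difference 0.01, limma adjusted p = 0.983). Foxc1 was the member called lower, at -0.39 and -0.09 against 0.58 and 1.21.

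The promoters of the contractile genes were read for the CArG box, the letters that Srf binds. RefSeq promoters (GRCm38.p6, 250 bases before to 50 after a start, either strand) were at hand for 22 of the 25 genes. Of their 25 promoters, 2 (8%) held a CArG box, against 535 of 32851 promoters (1.63%) over all genes and 1 of 33 (3.03%) of those of the luminal transcription factors. The 2 were those of Myl9 and Vcl, with the first base at -161 and -227 from the start, and their 250 bases upstream of the start are shown with the CArG box in capitals (Myl9, chr2:156775214-156775463, plus strand; Vcl, chr14:20929148-20929397, plus strand):
Myl9: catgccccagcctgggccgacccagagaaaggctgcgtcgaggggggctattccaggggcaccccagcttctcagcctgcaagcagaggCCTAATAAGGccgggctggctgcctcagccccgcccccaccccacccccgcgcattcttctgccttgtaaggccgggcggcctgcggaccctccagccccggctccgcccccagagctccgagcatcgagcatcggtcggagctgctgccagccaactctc
Vcl: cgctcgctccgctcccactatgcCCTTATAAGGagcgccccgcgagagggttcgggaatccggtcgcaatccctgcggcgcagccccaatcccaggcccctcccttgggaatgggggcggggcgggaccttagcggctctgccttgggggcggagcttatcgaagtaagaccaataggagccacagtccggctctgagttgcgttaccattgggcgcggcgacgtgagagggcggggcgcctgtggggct
A match is a description of letters and not a site, and promoters without one lack the letters in this window only. Of the genes with a match, Myl9 differed by 6.35, the second largest difference of the list, and Vcl by 1.12, below the list's median.

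Receptors and modulators of contraction were divided. Of 24 measured, 10 were called higher and 4 lower, with a median of 0.34. Oxtr, the oxytocin receptor, had levels of 2.58 and 1.88 in CD29hi cells against 0.22 and 0.22 in CD29lo cells. P2ry1, a receptor for extracellular ADP, stood at 3.24 and 2.32 against -0.31 and -0.05, a difference of 2.96 (SE 0.24, limma adjusted p = 2.7e-05). Both were higher on each CD29hi array, but the Oxtr probe was not well above background on either CD29lo array, so its level there is only a bound and no difference is given for this probe. The means over their probes gave 1.18 for Oxtr and 1.63 for P2ry1. Agtr1a, the angiotensin II receptor, was reversed, at 0.77 and 0.78 against 5.64 and 5.38, a difference of -4.74 (SE 0.15, limma adjusted p = 1.79e-07), 26.7-fold higher in CD29lo cells (mean over probes -2.99). Trpc6, a cation channel, was also lower, at 0.70 and 0.29 against 4.73 and 2.60, and its call was lost in the 6-array fit and without the genotype term. Edn1, which encodes the contracting peptide endothelin, was lower with a difference of -1.66, and Adra2a, an adrenergic receptor, with one of -1.92 (mean over probes -1.21).

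Genes of the hemidesmosome and basement membrane were mostly higher in CD29hi cells, 20 of 25 called higher and 1 lower, with a median of 1.74. Col17a1, the transmembrane collagen of hemidesmosomes, had levels of 7.64 and 7.85 in CD29hi cells against 1.76 and 2.30 in CD29lo cells, a difference of 5.71 (SE 0.15, limma adjusted p = 1.56e-07). Col7a1, the collagen of anchoring fibrils, stood at 5.11 and 5.11 against -0.27 and 0.10, a difference of 5.19 (SE 0.16, limma adjusted p = 1.79e-07). The CD29hi arrays were 52.5- and 36.5-fold higher, with no overlap. The laminin chain Lamb3 differed by 3.40 and Lama3 by 3.08 (mean over probes 1.67). Itgb4, the integrin chain of hemidesmosomes, differed only by 0.67 (mean over probes 0.29), at 4.30 and 4.32 against 3.93 and 3.35. Plec, which links hemidesmosomes to keratin filaments, was called lower (-0.53), and Lama5 differed by -0.43 without a call (limma adjusted p = 0.124).

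Matrix genes and matrix enzymes were called higher for 26 and lower for 2 of 30 members, median 1.86 (1.13 with the mean over probes). Col14a1, a fibril-associated collagen, had levels of 6.86 and 6.55 in CD29hi cells against 0.15 and 0.84 in CD29lo cells, a difference of 6.21 (SE 0.22, limma adjusted p = 2.98e-07), the largest difference of the list. Postn, periostin, stood at 5.80 and 6.04 against -0.55 and 1.43, a difference of 5.48 (SE 0.32, limma adjusted p = 3.59e-06). In both genes the CD29hi arrays lay well above the CD29lo arrays, with means over probes of 3.23 and 2.86. Sparc, a collagen-binding glycoprotein, differed by 4.41, Fbn1, fibrillin, by 3.16 and the gelatinase Mmp2 by 2.10. Ltbp1, a latent TGF-beta binding protein, was lower (-1.19, mean over probes -0.35), while its relative Ltbp2 was higher by 3.85 (mean over probes 1.93). Mfge8, a milk fat globule protein, was the other member called lower (-0.70).

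Fibroblast markers were mostly called higher as well. Of 15 measured, 12 were called higher and 1 lower in CD29hi cells, with a median of 0.98, and their mean level was -1.32 and -1.02 against -2.52 and -1.89. Calls higher fell to 5 in the 6-array fit and 5 without the genotype term. They fell to 4 with the deposited ratios and to 0 with the scanner software's. The median was 0.50 with median centring and 0.44 without the wild-type CD29lo array. Pdgfra, a defining fibroblast receptor, was below the reference on all 4 arrays, at -3.44 and -3.01 in CD29hi cells against -4.52 and -3.76 in CD29lo cells, and Col1a1 likewise at -3.55 and -2.70 against -4.67 and -3.39. Dcn, decorin, differed by 2.22 and Col5a1 by 2.45, with means over probes of 1.13 and 1.31. Col6a3, a collagen chain of stroma, was the member called lower, at -1.74 and -1.97 against 1.09 and -1.53, with 1 high array, the wild-type CD29lo one. Pericyte markers, several shared with smooth muscle, were called higher for 6 and lower for 2 of 11, with a mean level of 1.22 and 1.29 against 0.41 and 0.85. The 2 called lower were at least 2-fold lower in both genotypes, and the lowest difference was -2.10. Calls higher fell to 1 without the genotype term and to 2 with backgrounds as given, while 2 stayed called lower in each. Pdgfrb stood at -1.47 and -0.98 against -4.05 and -2.46 and the adhesion molecule Mcam, also a smooth muscle gene, at 4.26 and 3.62 against 0.64 and 0.28. The part of fibroblasts or pericytes in the contractile and matrix differences was not tested.

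**Figure D3:**
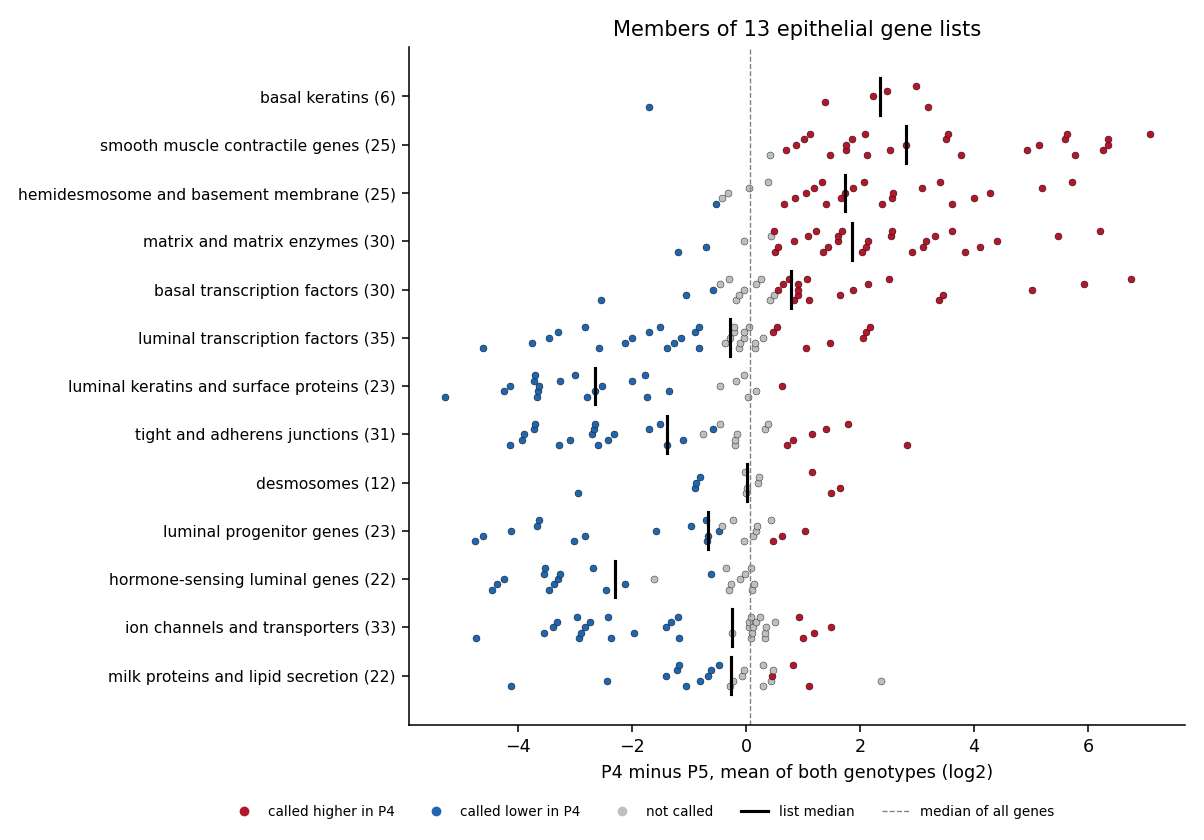
CD29hi minus CD29lo differences (log2, mean of both genotypes, x axis) of the members of 13 epithelial gene lists, 1 point per gene, red where called higher, blue where called lower and grey where not called, with black bars for list medians and the dashed line for the median of all genes (0.06). Medians run from 2.81 for smooth muscle contractile genes to -2.65 for luminal keratins and surface proteins.

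Among basal transcription factors 18 of 30 were called higher and 3 lower, median 0.80. Id4, an inhibitor of helix-loop-helix factors, had levels of 7.26 and 6.78 in CD29hi cells against 0.03 and 0.50 in CD29lo cells, a difference of 6.75 (SE 0.22, limma adjusted p = 1.79e-07). Snai2, the zinc finger repressor Slug, stood at 2.27 and 2.06 against -4.25 and -3.29, a difference of 5.93 (SE 0.24, limma adjusted p = 4.84e-07). Both were higher on each CD29hi array than on either CD29lo array, 108- and 61.1-fold. With Trp63 they made up the 3 largest differences of the list by the probe of highest signal. The other Trp63 probes differed only by 0.67 and 0.06. The homeobox gene Irx4 differed by 3.45, the zinc finger gene Egr2 by 3.38, the Wnt effector Tcf7l1 by 2.50 and the Hippo effector Tead1 by 2.13 (mean over probes 0.81). Sox10, at 4.10 and 4.07 against 3.15 and 3.20, differed by 0.91 (mean over probes 0.41) and was above the reference on all 4 arrays. Barx2 was lower, at 0.69 and 1.14 against 3.17 and 3.76, a difference of -2.55 (SE 0.15, limma adjusted p = 3.03e-06, mean over probes -1.66), and Sox9, at 4.24 and 4.27 against 4.91 and 4.75, was called lower (-0.58). Zeb1, a repressor of epithelial genes, was not called, at a difference of 0.42 (limma adjusted p = 0.0675), whereas Zeb2 was called higher by 0.84 (mean over probes 0.47).

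Luminal transcription factors were less uniform, with 16 of 35 called lower and 7 higher in CD29hi cells and a median of -0.29. Esr1, the oestrogen receptor, had levels of 0.38 and 0.29 in CD29hi cells against 4.06 and 3.22 in CD29lo cells, a difference of -3.31 (SE 0.19, limma adjusted p = 3.19e-06). Foxa1, its pioneer factor, stood at 0.42 and 0.02 against 3.83 and 3.50, a difference of -3.45 (SE 0.14, limma adjusted p = 5.78e-07). Grhl1, a grainyhead factor of epithelia, stood at 0.84 and 0.50 against 4.54 and 4.32, a difference of -3.76 (SE 0.15, limma adjusted p = 3.76e-07). On the CD29hi arrays all 3 were within 1 log2 unit of the reference, and on the CD29lo arrays they were 9.9-, 10.9- and 13.6-fold higher (mean over probes -1.95 for Esr1). Gata3, often used as a luminal factor, differed only by -0.90, at 3.05 and 3.38 against 4.34 and 3.88. Pgr, the progesterone receptor, had levels of 0.41 and 0.26 against 3.55 and 1.37 and was not well above background on either CD29hi array, so it was at least 4.28-fold lower there (limma adjusted p = 0.00247, mean over probes -1.35), a call lost in the 6-array fit and without the genotype term. Factors on the list that were called higher in CD29hi cells included Tfap2c, at 6.52 and 6.88 against 4.65 and 4.52, a difference of 2.11 (SE 0.17, limma adjusted p = 2.09e-05), and Cebpb, at 3.96 and 4.05 against 1.81 and 2.11, a difference of 2.04 (SE 0.15, limma adjusted p = 1.29e-05). Tcf7, an effector of Wnt signalling that the list also holds, was higher by 2.18.

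The promoters of the luminal factors were read for the forkhead letters TGTTTAC and the GATA letters AGATAA on either strand. Promoters were at hand for 23 of 36 listed genes; 3 of their 33 promoters (9.09%), those of Foxa1, Myb and Tcf7, held TGTTTAC against 1199 of all 32851 promoters (3.65%) and 1 of 25 (4%) of the contractile genes. None of the 33 and none of the 25 held AGATAA, against 3672 of all promoters (11.2%). The 250 bases before the Foxa1 start, in a gene 10.9-fold lower in CD29hi cells, are shown with the forkhead letters, here on the opposite strand, in capitals (chr12:57546112-57546361, minus strand, GRCm38.p6):
Foxa1: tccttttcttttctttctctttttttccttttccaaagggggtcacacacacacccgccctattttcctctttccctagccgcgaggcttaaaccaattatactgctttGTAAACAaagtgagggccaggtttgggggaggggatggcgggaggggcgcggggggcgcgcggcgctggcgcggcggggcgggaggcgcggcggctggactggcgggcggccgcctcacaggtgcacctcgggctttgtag

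Surface and keratin genes of luminal cells were called lower in CD29hi cells for 17 of 23 members and higher for 1, median -2.65. Tspan1, a tetraspanin, had levels of 2.22 and 2.27 in CD29hi cells against 7.58 and 7.49 in CD29lo cells, a difference of -5.29 (SE 0.15, limma adjusted p = 1.71e-07), the lowest difference of the list. Prom1 (CD133) stood at 1.51 and 0.63 against 6.23 and 4.39, a difference of -4.24 (SE 0.22, limma adjusted p = 1.52e-06). Both genes were higher on each CD29lo array, 39.0-fold for Tspan1. Epcam, an epithelial adhesion molecule used in sorting, differed by -1.74, at 2.26 and 2.14 against 4.12 and 3.74. Cdh1, E-cadherin, lay high on all 4 arrays, at 7.03 and 7.04 against 7.38 and 7.59, and was not called (-0.45, limma adjusted p = 0.0545). Itgb3 (CD61), used as a luminal progenitor marker, was the member called higher, at 2.59 and 4.21 against 2.19 and 3.37, by 0.62 (mean over probes 0.995). Itga2, another progenitor marker, differed by 0.17 and was not called (limma adjusted p = 0.469).

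Junction genes divided by layer. Of 31 genes of tight and adherens junctions 18 were called lower and 6 higher in CD29hi cells, median -1.39. Among claudins, the sealing proteins of tight junctions, Cldn8 had levels of 1.29 and 0.65 in CD29hi cells against 5.28 and 4.95 in CD29lo cells, a difference of -4.15 (SE 0.15, limma adjusted p = 3.32e-07), and Cldn4 stood at 2.77 and 2.78 against 6.20 and 6.75, a difference of -3.70 (SE 0.17, limma adjusted p = 8.91e-07). The scaffold Tjp3 stood at -1.01 and -0.66 against 3.06 and 3.12, while its relative Tjp1 differed by 0.38 without a call. Classical cadherins other than Cdh1 went the other way: Cdh3, P-cadherin of basal cells, had levels of 3.61 and 3.12 against 0.53 and 0.56, a difference of 2.82 (SE 0.17, limma adjusted p = 3.96e-06), and Cdh2 was higher by 1.78 (mean over probes 0.66). Of 12 desmosome genes 3 were called higher and 4 lower, median 0.01. Perp, Pkp1 and Dsp were higher in CD29hi cells, by 1.64, 1.49 and 1.15 (mean over probes 0.69), and the plaque protein Pkp2 was lower, at -1.86 and -1.64 against 1.18 and 1.22. The sign of the desmosome median turned with the backgrounds as given, with the Cy5 channel alone and without the heterozygous CD29hi array (-0.01).

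Of 23 genes tied to luminal progenitors 13 were called lower and 3 higher in CD29hi cells, median -0.67. Csn3, kappa casein, had levels of 0.51 and 0.43 in CD29hi cells against 4.81 and 4.37 in CD29lo cells, a difference of -4.12 (SE 0.16, limma adjusted p = 3.72e-07), 17.4-fold. Ltf, lactoferrin, stood at 3.15 and 4.11 against 6.42 and 6.86, a difference of -3.01 (SE 0.17, limma adjusted p = 2.59e-06), and Plet1, a surface protein, at 7.68 and 7.60 against 9.01 and 9.44, a difference of -1.59 (SE 0.17, limma adjusted p = 0.000134). Each was lower on both CD29hi arrays than on either CD29lo array, although Plet1 was well above the reference throughout. Cd14, the endotoxin coreceptor, was lower (-3.64). Lcn2, lipocalin, differed by 0.13 without a call, and Tnfrsf11b, the decoy receptor for RANKL, was higher by 1.03.

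Hormone-sensing luminal genes were called lower in CD29hi cells for 13 of 22 members and higher for none, median -2.29. Prlr, the prolactin receptor, had levels of 3.29 and 2.21 in CD29hi cells against 6.11 and 6.48 in CD29lo cells, a difference of -3.55 (SE 0.28, limma adjusted p = 2.25e-05). Areg, amphiregulin, the EGF-family ligand of oestrogen action, stood at 2.26 and 1.13 against 6.30 and 5.82, a difference of -4.37 (SE 0.18, limma adjusted p = 5.02e-07). Wnt4, a target of progesterone, stood at -0.75 and -0.82 against 2.60 and 2.56, a difference of -3.37 (SE 0.14, limma adjusted p = 6.55e-07). The CD29lo arrays were thus high in both genotypes for these genes, by 11.7-, 20.6- and 10.3-fold. Cited1, a coregulator of oestrogen receptor, and Cxcl15, a chemokine, were also lower (differences of -3.53 and -4.45). The RANK ligand Tnfsf11, at -0.06 and -0.30 against -0.07 and 0.30, was not well above background on either CD29hi array and was not called. Calca, which encodes calcitonin and CGRP, was high on the heterozygous CD29lo array alone, at 0.13 and 1.13 against -0.11 and 4.60, and was not called (limma adjusted p = 0.101).

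Wnt genes were split by role. Of 19 ligands 4 were called higher and 4 lower, beside 14.1% and 11.6% of all genes, median 0.13. Wnt10a had levels of 1.83 and 2.13 in CD29hi cells against -3.11 and -2.50 in CD29lo cells, a difference of 4.78 (SE 0.15, limma adjusted p = 1.79e-07), and Wnt11 stood at 4.25 and 3.71 against 2.70 and 1.29, a difference of 1.99. The ligands called lower in CD29hi cells were Wnt4, Wnt5a (-1.30), Wnt5b (-1.35) and Wnt7b (-0.76). Receptors and R-spondins were called higher for 13 and lower for 2 of 24, median 0.66. The median was 0.15 with median centring and 0.38 without the wild-type CD29lo array, where 2 were called higher. Lgr5, an R-spondin receptor and stem cell marker in gut, had levels of 4.53 and 4.45 against 0.69 and 0.71, a difference of 3.79 (SE 0.15, limma adjusted p = 3.76e-07), and Fzd7, a frizzled receptor, 3.45 and 2.65 against 0.32 and 0.33, a difference of 2.73 (SE 0.20, limma adjusted p = 1.24e-05). They were 13.8- and 6.62-fold higher in CD29hi cells, with means over probes of 1.93 and 1.49. Lgr4 differed more between genotypes than between populations, at 4.20 and 6.30 against 3.68 and 5.42. Feedback and antagonist genes were called higher for 14 of 24 and lower for none, median 0.71. That median was 0.42 with median centring and 0.33 without the wild-type CD29lo array, and 7 were called higher with the deposited ratios. Nkd1, an inhibitor induced by Wnt, had levels of 4.25 and 4.74 against -1.55 and -0.92, a difference of 5.73 (SE 0.15, limma adjusted p = 1.53e-07), 53.2-fold. Axin2, the common readout of Wnt activity, stood at 0.09 and -0.33 against -1.96 and -1.60; it was not well above background on either CD29lo array and was at least 2.87-fold higher in CD29hi cells. Procr, a marker proposed for mammary stem cells, stood at 2.96 and 2.40 against 0.41 and 1.09, a difference of 1.93 (SE 0.25, limma adjusted p = 0.000463). Lef1, another target, differed by 0.14 and was not called.

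The Notch ligands Jag2, Dll1 and Jag1 were higher in CD29hi cells and the receptors Notch1 and Notch3 in CD29lo cells. Of 25 pathway genes 6 were called higher and 5 lower, median 0.29. The ligand Jag2 had levels of 4.29 and 4.43 in CD29hi cells against -0.76 and -0.25 in CD29lo cells, a difference of 4.86 (SE 0.16, limma adjusted p = 1.88e-07). Dll1 stood at 5.51 and 4.92 against 0.38 and 0.73, a difference of 4.66 (SE 0.21, limma adjusted p = 8.67e-07), and Jag1 at 4.95 and 4.93 against 2.40 and 2.17, a difference of 2.65 (SE 0.15, limma adjusted p = 2.59e-06). All 3 ligands were higher on both CD29hi arrays than on either CD29lo array (mean over probes 1.64 for Jag1). The receptors Notch1, at -0.62 and -0.77 against 1.31 and 1.27, and Notch3, at -0.48 and -0.05 against 1.87 and 1.80, were lower in CD29hi cells, by 3.97- and 4.30-fold (limma adjusted p = 1.35e-05 and 2.19e-05), while Notch2 differed by 0.50 (mean over probes 0.23). Of the target genes, Hes1, a repressor induced by Notch, had levels of 0.54 and -0.25 against 1.72 and 1.85, a difference of -1.64 (SE 0.21, limma adjusted p = 0.000431), and the feedback gene Nrarp was lower (-1.11). Hey1, another target, differed by -0.04 without a call.

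**Figure D4:**
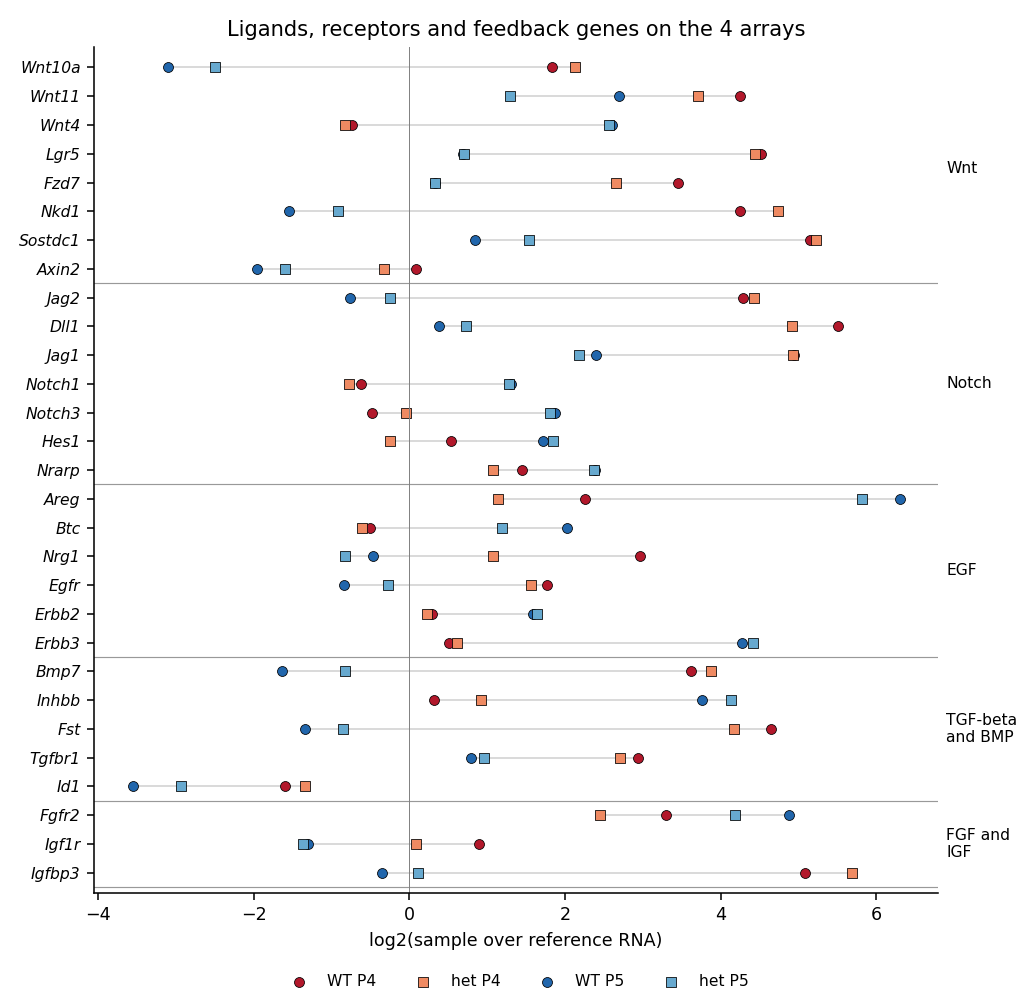
Levels of 29 ligands, receptors and feedback genes on the 4 arrays, as log2 of sample over reference RNA on the x axis, with circles for wild-type and squares for heterozygous mice, red for CD29hi (P4) and blue for CD29lo (P5). The Notch ligands Jag2, Dll1 and Jag1 lie to the right in CD29hi cells, and the receptors Notch1 and Notch3 to the right in CD29lo cells.

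In the EGF family 6 of 15 genes were called higher and 4 lower, median 0.30. The receptor Egfr had levels of 1.77 and 1.57 in CD29hi cells against -0.84 and -0.28 in CD29lo cells, a difference of 2.23 (SE 0.19, limma adjusted p = 3.89e-05), higher on both CD29hi arrays (mean over probes 1.05). Erbb3 stood at 0.51 and 0.61 against 4.28 and 4.42, a difference of -3.79 (SE 0.14, limma adjusted p = 3.75e-07), and Erbb2 at 0.29 and 0.22 against 1.59 and 1.63, both lower on the CD29hi arrays; the probes of Erbb3 disagreed in size, with a mean of -0.99. Among ligands, Nrg1, which binds Erbb3, stood at 2.97 and 1.07 against -0.47 and -0.83, a difference of 2.67 (SE 0.29, limma adjusted p = 0.000168), high on the wild-type CD29hi array and less so on the heterozygous one. Btc, betacellulin, was not well above background in CD29hi cells and was at least 3.99-fold lower there.

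TGF-beta and BMP genes were called higher for 16 and lower for 1 of 32, median 0.46. Bmp7 had levels of 3.62 and 3.87 in CD29hi cells against -1.63 and -0.83 in CD29lo cells, a difference of 4.97 (SE 0.17, limma adjusted p = 2.65e-07). Fst, follistatin, an activin antagonist, stood at 4.65 and 4.17 against -1.34 and -0.86, a difference of 5.51 (SE 0.22, limma adjusted p = 3.76e-07), and Inhbb, an activin subunit, at 0.31 and 0.92 against 3.76 and 4.14, a difference of -3.33 (SE 0.15, limma adjusted p = 7.92e-07). The antagonist was thus high in CD29hi cells and the subunit in CD29lo cells, 45.5- and 10.1-fold (mean over probes -1.94 for Inhbb). The receptor Tgfbr1 was higher by 1.96 (mean over probes 1.04) and the target Id1 by 1.78, at -1.60 and -1.34 against -3.56 and -2.94, while Id3 differed by -0.03 and was not called.

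FGF, HGF, neurotrophin and IGF genes were called higher for 15 and lower for 4 of 30, median 0.52. Igfbp3, an IGF carrier, had levels of 5.09 and 5.69 in CD29hi cells against -0.36 and 0.11 in CD29lo cells, a difference of 5.52 (SE 0.15, limma adjusted p = 1.53e-07, mean over probes 3.35). The receptor Igf1r stood at 0.89 and 0.09 against -1.31 and -1.38, a difference of 1.83 (mean over probes 0.77), and Fgfr2, the FGF receptor of ductal epithelium, at 3.30 and 2.45 against 4.88 and 4.18, a difference of -1.66 (SE 0.15, limma adjusted p = 4.31e-05). Fgfr2 levels were above the reference on all 4 arrays and higher on the CD29lo arrays within each genotype. Axon guidance genes were called higher for 20 and lower for 5 of 41, median 0.48. The secreted ligand Slit3 had levels of 1.22 and 1.07 against -3.63 and -2.44, a difference of 4.18 (SE 0.27, limma adjusted p = 5.7e-06), Slit2 was higher by 3.18 (mean over probes 0.92) and their receptor Robo1 by 1.12 (mean over probes 0.70). Ntn1, netrin, was lower in CD29hi cells, at -0.07 and -0.13 against 2.05 and 1.90, a difference of -2.08 (SE 0.15, limma adjusted p = 1.02e-05, mean over probes -1.28).

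Chemokines and cytokines were called higher for 13 and lower for 7 of 30, median 0.30. Cxcl14 had levels of 5.77 and 6.42 in CD29hi cells against 0.47 and 1.50 in CD29lo cells, a difference of 5.11 (SE 0.16, limma adjusted p = 1.79e-07), and Cxcl12 stood at 0.71 and 0.59 against -3.99 and -3.14, a difference of 4.22. Kitl, the ligand of Kit, was higher in CD29hi cells, at 3.30 and 2.67 against 0.70 and 0.91, a difference of 2.18 (SE 0.20, limma adjusted p = 5.46e-05), the reverse of its receptor (mean over probes 1.25). Cxcl17 was lower, at 0.72 and 0.54 against 3.83 and 3.21, a difference of -2.89, as was the alarmin Il33 with -1.98. Il6, at 4.79 and 4.73 against 1.86 and 3.64, was called higher by 2.01.

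Genes of secretion favoured CD29lo cells in part. Of 31 genes of mucosal defence 11 were called lower and 6 higher in CD29hi cells; the median, 0.01, turned sign in several settings. Dmbt1, a scavenger receptor of mucosal surfaces, had levels of 2.51 and 1.39 in CD29hi cells against 7.22 and 6.75 in CD29lo cells, a difference of -5.03 (SE 0.18, limma adjusted p = 3e-07), and Clca1, a secreted regulator of chloride conductance, 2.20 and 1.19 against 7.23 and 6.21, a difference of -5.02 (SE 0.14, limma adjusted p = 1.79e-07). Slpi, a protease inhibitor, was reversed, at 1.67 and 2.05 against -3.12 and -2.85, a difference of 4.84 (SE 0.15, limma adjusted p = 1.79e-07, mean over probes 2.47). Of 33 ion channels and transporters 16 were called lower and 4 higher, median -0.25. The water channel Aqp5 stood at 1.26 and 0.37 against 5.95 and 5.17, a difference of -4.74 (SE 0.15, limma adjusted p = 1.79e-07), and the iodide transporter Slc5a5 at 0.54 and 0.32 against 4.92 and 3.02, a difference of -3.54 (SE 0.32, limma adjusted p = 4.47e-05). Aqp3, another water channel, was instead called higher in CD29hi cells, at 6.62 and 7.25 against 5.98 and 5.48.

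Of 22 milk protein and lipid secretion genes 10 were called lower and 3 higher in CD29hi cells, median -0.26. Besides Csn3, the casein gene Csn1s1 was lower, at 0.13 and 0.28 in CD29hi cells against 1.22 and 1.55 in CD29lo cells, as was Cidea, a lipid droplet protein, with a difference of -2.44. Csn2 and Wap differed by -0.23 and 0.44 and were not called. Glycam1 was high on the wild-type CD29hi array alone, at 4.81 and 0.06 against 0.05 and 0.07, and was not called (limma adjusted p = 0.0607). Retinoid, steroid and xenobiotic genes were called higher for 11 and lower for 9 of 34, median 0.17. The dehydrogenases divided: Aldh1a1, at -0.63 and -0.27 against -2.10 and -1.75, was higher in CD29hi cells by 1.48, in contrast to Aldh1a3, and Dhrs3 was lower (-2.06).

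Among called genes with a gene symbol that were well above background on both arrays of at least 1 population and had one sign in both pairs, the 12 highest and the 12 lowest differences included 8 on none of the lists. Ecrg4, a secreted peptide precursor, Sobp and Actc1, cardiac actin, were 72.6-, 66.5- and 55.2-fold higher in CD29hi cells. The probes of actin genes may share target with Acta2, which holds for Actc1 and Acta1 alike, and whether they did was not tested. In CD29lo cells the 5 were Tlcd4 (-4.86), Crym, a thyroid hormone-binding protein (-4.74), Hp, haptoglobin (-4.71), AW112010 (-4.68) and Stc2, stanniocalcin (-4.64).

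Apart from the fibroblast and pericyte lists, the markers of other cell types had medians between 0.12 and 0.44. Endothelial markers were called higher for 6 and lower for 1 of 14, median 0.41, and immune markers higher for 7 and lower for none of 18, median 0.35. These calls moved with the processing: no immune marker was called in the 6-array fit, with the deposited or scanner ratios or without the genotype term. No endothelial marker was called higher with offset 0, with either set of ratios or without the genotype term. Pecam1 and Ptprc, which define the 2 cell types, differed by 0.14 and 0.13 and were not called. The mean endothelial level was 1.10 and 1.27 in CD29hi cells against 0.58 and 1.04 in CD29lo cells, and the immune one -0.92 and -0.49 against -1.36 and -0.96. Adipocyte markers were called higher for 6 of 12, median 0.44, led by the glucose transporter Slc2a4 (3.50), with Adipoq not called (0.14). Their calls fell to 2 in the 6-array fit, with offset 0, with the deposited ratios and without the genotype term. With the scanner ratios they fell to 0. Of 12 nerve and Schwann markers 4 were higher and 3 lower, median 0.15, and Pmp22 (3.28, mean over probes 1.67) and Erbb3 were the extremes. Of 12 skeletal muscle markers Acta1 (5.40) and Myh2 (1.88) were called higher and 10, Ckm (-0.05) among them, were not, and 1 of 7 erythroid markers was called, Alas2, lower (-0.70). Over all genes 14.1% were called higher and 11.6% lower, and the skeletal muscle and erythroid counts lie near those shares. The part of these cells in the differences was not tested.

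**Figure D5:**
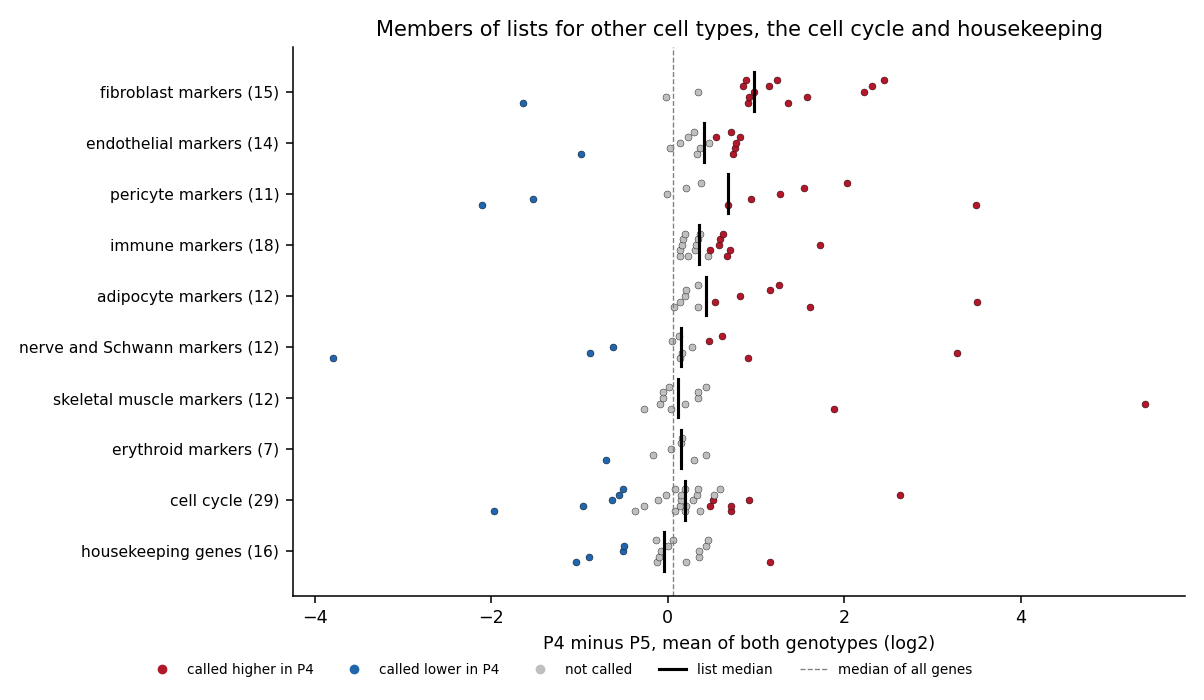
CD29hi minus CD29lo differences (log2, mean of both genotypes, x axis) of the members of 10 lists for other cell types, the cell cycle and housekeeping, 1 point per gene, red where called higher, blue where called lower and grey where not called, with black bars for list medians and the dashed line for the median of all genes. The fibroblast median is 0.98, the median of all genes 0.06 and the housekeeping median -0.04.

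Cell cycle genes did not separate the populations as a list: 6 of 29 were called higher and 5 lower, beside 14.1% and 11.6% of all genes. The median, 0.19, turned negative with median centring (-0.23), with the Cy5 channel alone (-0.03) and without the wild-type CD29lo array (-0.21). The D cyclins were opposed. Ccnd2 had levels of 0.12 and 0.12 in CD29hi cells against -2.82 and -2.20 in CD29lo cells, a difference of 2.63 (SE 0.18, limma adjusted p = 8.07e-06), and Ccnd1 stood at -1.39 and -0.81 against 0.76 and 0.98, a difference of -1.97 (SE 0.16, limma adjusted p = 2.25e-05). Each D cyclin was higher on both arrays of one population. Mki67, the proliferation marker, was below the reference on all 4 arrays, at -3.30 and -3.31 against -3.63 and -2.76, and was not called (limma adjusted p = 0.782). Of 16 housekeeping genes 1 was called higher and 4 lower, median -0.04.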

How the data were processed

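RNA of 4 sorted samples was hybridised to Agilent 2-colour arrays of the mouse genome, 1 array per population and genotype, each against reference RNA. The authors deposited scanner files made with Agilent Feature Extraction 9.5.3.1, per the file headers, with red (Cy5) and green (Cy3) mean and background intensity per spot and a log10 ratio per spot. The deposited value table holds log2 ratios of the same arrays; they followed the scanner ratios with correlations of 0.988 to 0.999, and how they were normalized is not given in the sources used here. Probe positions are those of mm7, per the file headers.

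Here, spot intensities were read with R 4.3.3 and limma 3.58.1, corrected with normexp (offset 50) and normalized within each array by loess, with control spots at weight 0. A few local backgrounds far above the rest (up to 30168 against a median of 37 on the wild-type CD29hi array, Cy3) shifted the normexp mean of that whole array from 0.225 to -559. Backgrounds above the array's median plus 10 median absolute deviations were therefore replaced by that median in the main setting; this had been planned as the alternative, and the choice was exchanged with backgrounds as given after these values were seen. Control and outlier-flagged spots were left out and spots of a probe averaged. Of 41174 probes, 22951 were named by accession, 6659 by symbol and 3109 by synonym through RefSeq, and 8455 kept the array's name. Each gene was represented by its probe of highest mean Cy5 level, and 24 of 27670 genes had no probe measured on all 4 arrays.

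Samples were grouped by their labels. The 4 arrays were fitted with population and genotype terms (lmFit and eBayes, 1 residual degree of freedom, prior degrees of freedom 7.98), so genotype is the pairing. On simulated data of 27646 genes, 87% of 100 genes shifted by 1 and 100% of 100 shifted by 2 on the log2 scale were recovered, with 15 unshifted genes called. The simulated spread was drawn from the same prior that the fit assumes. The recovery therefore checks the code and cannot say how reliable the calls in the real data are. Depth has no count on arrays and their number limits the precision; 74.3% to 86.0% of spots were well above background in Cy5, median signal over background was 3.24 to 4.52, and the log2 ratios of 245 probes printed 10 times had a standard deviation of 0.0929 to 0.106 within an array. Bounds ("at least N-fold") were set where all probes of a gene were not well above background on both arrays of a population, against the lowest well-measured signal, and are open to dye bias without a swap.

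The text names the 12 highest and 12 lowest called genes of one sign in both pairs that have a gene symbol and were well above background on both arrays of at least 1 population. It also names members of gene lists, 6 marker genes, and the 5 genes at each end of the difference between pairs among genes well above background on all 4 arrays. Members and lists were chosen with earlier results of these data known, so lists are described by counts and medians and not tested. Alternatives covered background, offset, normalization, dim probes, the probe of a gene, the fit and leaving out each array. Promoters come from RefSeq (GRCm38.p6). Some genes are not reported here.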

Additional observations from a re-analysis of the deposited data

Results flagged for a closer look

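Some genes and 2 lists had opposite signs of the CD29hi minus CD29lo difference in the 2 genotypes. The genes given are those at either end of the difference between pairs, among genes well above background on all 4 arrays, and the 1 list member at least 0.5 apart in each direction on the log2 scale. Each pair is 1 array against 1 array, and the difference between the pairs was not tested. Calca, which encodes calcitonin and CGRP, differed by 0.24 in the wild-type and -3.47 in the heterozygous pair, with 1 high array, the heterozygous CD29lo one. Ifi202b, an interferon-inducible gene, differed by -0.71 and 2.27, with its lowest level on the heterozygous CD29lo array (-4.34). Cpeb2, an RNA-binding regulator of translation, differed by 1.84 and -0.53, 1700086P04Rik by 2.08 and -0.48 and 4930402H24Rik by 1.84 and -0.53; all 3 were highest on the wild-type CD29hi array. Complement C3 differed by 1.13 and -0.81. The median of the cell cycle list was 0.451 in the wild-type and -0.0443 in the heterozygous pair, and that of the housekeeping list 0.0607 and -0.0450.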

How the results depend on the processing

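The main setting, in which outlying local backgrounds were replaced, was chosen after seeing the data, and limma called 7097 genes in it. Local backgrounds as given, the main setting first planned, led to 4435 calls. Offset 0 led to 3399. Ratios taken from the scanner files led to 0 (7479 at an unadjusted p below 0.05) and the deposited log2 ratios to 2335. Against the 7097 of the main setting, 3665 were called with all 6 arrays and 2765 without the genotype term. Median centring (7054), the Cy5 channel alone (6589), dim probes left out (7060) and the mean over probes (6013) stayed within 1.5 times. Leaving out 1 sorted array, which needs the 6-array fit, gave 0 to 2944 calls. The lone array of a population's genotype is then assumed to vary like the others.

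The number of genes at least 2-fold apart in both genotypes ranged from 1571 with the mean over probes to 2957 with the deposited log2 ratios. Of the calls shared with the main setting, 3 genes had the opposite direction, all with the mean over probes, and none of the 467 called list members had it under any alternative. In the 6-array fit and without the genotype term the direction could not turn, because the differences are those of the main fit. The number of these members that kept their call was 464 with dim probes left out, 426 with Cy5 alone, 414 with the mean over probes, 386 with median centring, 372 with backgrounds as given, 323 with offset 0, 310 with 6 arrays, 288 without the genotype term, 255 with the deposited ratios and 0 with the scanner software's ratios. It was 0 when either one of the CD29hi arrays was left out, 184 without the wild-type CD29lo array and 300 without the heterozygous CD29lo array; the cause was not tested.

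List medians that changed sign under some alternative were those of mucosal defence, desmosomes, cell cycle, erythroid and housekeeping genes. Over the settings with no array left out, 148 list medians moved by more than the standard deviation of the 2 pair medians and 212 did not. Of these settings, the 6-array fit and the fit without the genotype term give the main differences by design. Their list medians could not move, except where a gene was not measured on all 6 arrays, and they add to the 212. With the mean over probes, the median went from 2.81 to 2.11 for contractile genes and from 1.86 to 1.13 for matrix genes. It went from -2.29 to -1.65 for hormone-sensing genes, from -1.39 to -0.92 for junctions and from 0.48 to 0.23 for smooth muscle regulators. It stayed at 2.35 for basal keratins. Calls within lists moved as well. With the deposited ratios, calls higher went from 6 to 1 for regulators of smooth muscle genes. They went from 10 to 4 for receptors of contraction and from 15 to 5 for FGF, HGF and IGF genes. For TGF-beta and BMP genes they went from 16 to 7, for axon guidance from 20 to 8 and for contractile genes from 24 to 20. No paired analysis beyond the genotype term was possible because each group held 1 array. Signal over background limits the fold of dim genes: 2997 genes were dim in both populations, and 38 called higher and 80 called lower were dim in one.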

Other observations

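The pairs differed most in a few genes beyond those of opposite sign. Dscam, a cell adhesion gene, had levels of 0.08 and 0.12 in CD29hi cells against 3.21 and 0.83 in CD29lo cells, wild type first. Tmem86a stood at -0.49 and -1.21 against 2.98 and -0.42, and Chst8, a sulfotransferase, at 0.70 and 0.20 against 4.09 and 1.27. Col6a3, a collagen chain of stroma, stood at -1.74 and -1.97 against 1.09 and -1.53. In these 4 genes the wild-type CD29lo array stood above the other 3. Ido1, which degrades tryptophan, was higher in CD29lo cells in both genotypes, at 5.08 and 2.42 against 7.90 and 7.53.

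Arrays correlated by population more than by genotype across genes: r was 0.916 between the CD29hi arrays and 0.924 between the CD29lo arrays, against 0.663 between the 2 wild-type and 0.772 between the 2 heterozygous arrays. All 4 share the reference and the slide.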
